A study of Mus musculus with 23 samples.

Results

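Smooth muscle contractile genes are those whose products build the actin and myosin filaments of smooth muscle cells or regulate their sliding. Of the 23284 genes in the expression table, 10 were described here, taken by symbol: the actins Acta2 and Actg2, the myosin genes Myl9 and Myh11, the tropomyosins Tpm1 and Tpm2, the thin filament regulator Cald1, and the calponin family members Tagln, Cnn1 and Cnn2. All 10 had 1 row each in the table. They were chosen with earlier results of these data known, and their values were followed over 16 single bone marrow-derived mesenchymal stem cells (mMSC1 to mMSC16).

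To compare single cells, RNA-seq was made from 23 mouse libraries. The 16 mMSCs were purchased, came from the marrow of 3-month-old male C57BL mice (strain label C57BL/6J), with no edit or treatment named, and were used at passages 6 to 11. As a non-MSC control, 5 single cells (HL1cm1 to HL1cm5) of the HL-1 line were captured, a cardiomyocyte line that descends from a mouse atrial tumour, labelled C57BL/6J, at passages 70 to 85. HL-1 cells beat and divide in culture, are 1 line and received a green cytoplasmic dye, so they stand neither for adult heart muscle nor for smooth muscle. Each cell type also had 1 population control of bulk RNA (mMSC-PC and HL1cm-PC). All single cells shared a capture device and all libraries a sequencing lane, while the 2 cell types were grown in different media. No separate cultures are named, so the cells of each type counted as 1 sample, no test was made between them, and relations over cells are given as descriptions with no p.

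The labelled cell types were checked against their markers. Summed over 9 MSC markers, the mMSCs held 3684 to 10457 FPKM against 586 to 1005 in HL1cm, although Thy1 was listed at 0 in every single cell. The sum in HL1cm was mostly Vim, at 555 to 1005 FPKM. Ly6a, Cd9, Col1a2 and Pdgfrb were listed at 0 in every HL1cm. Summed over 8 cardiomyocyte markers, the HL1cm held 32770 to 59950 FPKM against 0 to 65.4 in mMSCs. Markers of other cells that carry contractile genes were near 0 in mMSCs: the 6 pericyte and mural markers summed to 0 to 3.39 FPKM with Cspg4, Abcc9 and Kcnj8 listed at 0 in all 16 cells, and the 4 skeletal muscle markers summed to 0 to 9.13 FPKM with Myod1, Myog and Ckm at 0. In mMSC-PC the skeletal muscle markers summed to 58.9 FPKM, of which Acta1 was 41.2 and Myod1 17.6, and their part in its contractile gene values was not tested. The 4 endothelial markers summed to 0 to 10.8 FPKM and the 6 macrophage markers to 0 to 48.1 FPKM, with Pecam1, Cdh5, Tek, Ptprc, Emr1 and Lyz2 at 0 in every mMSC. Some macrophage marker was above 0 in 10 mMSCs, chiefly Csf1r, at 1 FPKM or more in 8 with at most 32.6 FPKM, and Cd68, at 48.1 FPKM in mMSC11 alone. A gene is called detected where it was at 1 FPKM or more, and an mMSC had 5178 to 7241 detected genes against 6428 to 7010 for an HL1cm. The table holds no counts, so the depth behind each value is unknown from it and no counting interval is given. A value of 0 may be a failed estimate: 5 genes stood at 100 FPKM or more in 15 mMSCs and at 0 in the other one. Genes are therefore called listed at 0.

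In smooth muscle, myosin pulls on actin filaments once the regulatory light chain of myosin has been phosphorylated, and calponin, caldesmon and tropomyosin lie along the thin filament and set how freely myosin can act on it. Many of these genes are turned on together by serum response factor (SRF), which binds a short element called the CArG box and works with coactivators of the myocardin family. Acta2, Tagln and Cnn1 are widely used as markers of smooth muscle differentiation, and they are also known from myofibroblasts and cultured mesenchymal cells, while Acta2 and Tagln are active in the embryonic heart. Cnn2, Tpm1, Tpm2 and Cald1 have forms in many cell types that are not muscle, and the table gives 1 value per gene with all forms together.

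To look for the CArG box, the 250 bases before the RefSeq start of each member were read from RefSeq promoter sequences of build GRCm38.p6. The table held 8 entries for 7 members, since Cald1 has 2 starts, and none was matched for Tagln, Actg2 or Myh11. The CArG box was searched as 2 C, then 6 bases of A or T, then 2 G, a form that reads the same on both strands, and also with 1 C or G allowed among the 6 inner bases. The 3 members in which either form was found are shown 5′ to 3′ on the strand of the gene, with each match in capitals. They are Acta2 at chr19:34255374-34255623 on the minus strand, Cnn2 at chr10:79988350-79988599 on the plus strand and Myl9 at chr2:156775214-156775463 on the plus strand.
Acta2: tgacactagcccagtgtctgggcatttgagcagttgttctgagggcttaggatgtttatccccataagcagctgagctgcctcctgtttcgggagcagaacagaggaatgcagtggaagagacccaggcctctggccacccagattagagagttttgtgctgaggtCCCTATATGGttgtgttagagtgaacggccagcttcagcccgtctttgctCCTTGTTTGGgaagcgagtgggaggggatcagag
Cnn2: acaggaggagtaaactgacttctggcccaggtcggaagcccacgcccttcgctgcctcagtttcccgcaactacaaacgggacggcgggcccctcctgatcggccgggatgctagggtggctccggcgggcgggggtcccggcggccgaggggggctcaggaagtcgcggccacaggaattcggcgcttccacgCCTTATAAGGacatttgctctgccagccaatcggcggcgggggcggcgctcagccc
Myl9: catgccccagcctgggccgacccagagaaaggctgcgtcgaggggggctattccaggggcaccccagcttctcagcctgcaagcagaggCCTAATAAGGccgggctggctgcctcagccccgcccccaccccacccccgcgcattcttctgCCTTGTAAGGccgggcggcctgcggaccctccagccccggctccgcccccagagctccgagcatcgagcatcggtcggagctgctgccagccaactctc
Cnn2 had the exact form CCTTATAAGG starting 56 bases before the RefSeq start, and Myl9 had CCTAATAAGG at 161 bases. Acta2 had only the looser form, CCCTATATGG at 84 bases and CCTTGTTTGG at 34 bases, and Myl9 had a looser match, CCTTGTAAGG, at 99 bases. Among the 32851 promoters of the same length in the table, 1.47% held the exact form and 8.59% held either. The entries of Cnn1, Tpm1, Tpm2 and Cald1 had no match in this window. All distances are from RefSeq starts. The GENCODE genes given next begin inside all 3 windows, so the matches lie closer to the GENCODE starts of Cnn2 and Myl9, and both Acta2 matches lie inside the GENCODE gene. A match is a description of the letters and does not show that the element is used.

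The genes lie on 7 chromosomes in the GENCODE M21 annotation of GRCm38, the build (mm10) to which the reads were aligned. Acta2 is at chr19:34241090-34255590, Actg2 at chr6:83512905-83536265, Myl9 at chr2:156775420-156781658 and Myh11 at chr16:14194535-14291372. Tpm1 is at chr9:67022590-67049406, Tpm2 at chr4:43514711-43523765 and Cald1 at chr6:34598500-34775473. Among the calponin family, Tagln is at chr9:45929619-45936058, Cnn1 at chr9:22099216-22109630 and Cnn2 at chr10:79988584-79996062. Tagln overlaps Pcsk7 and an antisense transcript, Gm48529, on the other strand. Of the 1983 stretches of 75 bases in the Tagln transcripts, 53.3% also occurred in transcripts of these 2 genes, against 0 for each of the other 9 members. Since the library kit does not mark strand, reads from the stretches that Tagln shares with its antisense partner cannot be assigned to either.

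**Figure D1:**
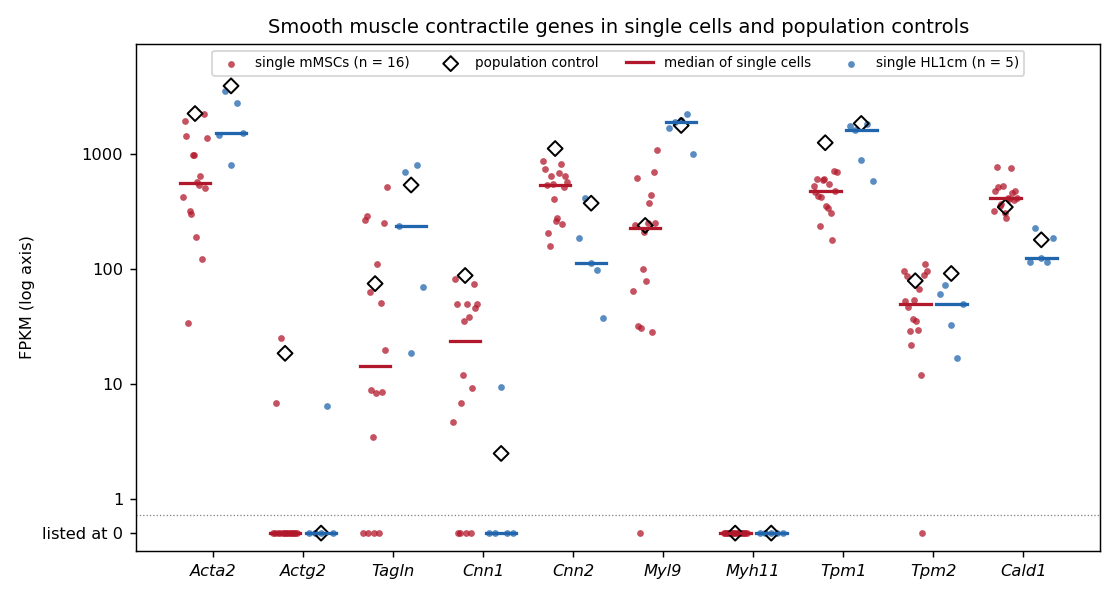
Level of each member gene in FPKM (log axis, with values listed at 0 drawn on a separate line) in the 16 single mMSCs, the 5 single HL1cm and both population controls; dots are single cells, bars are medians over cells and diamonds are population controls. Acta2, Cnn2, Tpm1 and Cald1 were above 0 in every mMSC, while Tagln and Cnn1 were each listed at 0 in 4 mMSCs.

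Of the 10 members, 4 were detected (1 FPKM or more) in all 16 mMSCs, namely Acta2, Cnn2, Tpm1 and Cald1. Over all genes in the table, 9.2% were at this level in every mMSC, and among the 11850 genes detected in at least 2 of the 21 single cells the share was 18.1%. FPKM is scaled by transcript length, so levels may be compared between genes. By median over mMSCs the order was Acta2 (554 FPKM), Cnn2 (536 FPKM), Tpm1 (472 FPKM), Cald1 (413 FPKM), Myl9 (224 FPKM), Tpm2 (49.1 FPKM), Cnn1 (23.6 FPKM) and Tagln (14.3 FPKM), with Actg2 and Myh11 at 0. The cells of the first 5 overlapped widely, and so did those of Tpm2, Cnn1 and Tagln, so neighbours in this order did not differ beyond their spread.

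Among the actins, Acta2 (smooth muscle alpha-actin) varied most between mMSCs of the 4 members seen in all of them. It was 33.5 FPKM in mMSC4, 554 FPKM at the median and 2222 FPKM in mMSC14, a 66.4-fold range. The next highest cells were mMSC2 with 1933 FPKM, mMSC3 with 1416 FPKM and mMSC16 with 1356 FPKM. On the log2 scale, with values under 1 FPKM set to 1, Acta2 was 9.003 ± 1.57 (SD, n = 16 cells). In HL1cm1 to HL1cm5 it was 1446, 3532, 798, 2786 and 1523 FPKM, or 10.79 ± 0.85 on the log2 scale (SD, n = 5 cells). Every HL1cm was above the mMSC median, yet 6 mMSCs reached into the HL1cm range. Actg2, the smooth muscle gamma-actin of gut and bladder, was above 0 only in mMSC3 (6.79 FPKM) and mMSC6 (25.1 FPKM) among the mMSCs, and only in HL1cm4 (6.39 FPKM) among the HL1cm. Actg2 was 18.3 FPKM in mMSC-PC and 0 in HL1cm-PC.

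Among the myosin genes, Myl9 encodes the smooth muscle regulatory light chain and Myh11 the smooth muscle heavy chain. Myl9 was listed at 0 in mMSC5 and lay between 28.2 FPKM (mMSC13) and 1069 FPKM (mMSC16) in the other 15 mMSCs, with a median over all 16 of 224 FPKM. The next highest were mMSC14 with 688 FPKM, mMSC3 with 618 FPKM and mMSC12 with 433 FPKM. In HL1cm1 to HL1cm5 Myl9 was 1671, 1880, 1971, 2219 and 997 FPKM. The HL1cm values were thus close to each other, and 15 of 16 mMSCs were below all of them, mMSC16 being the exception by a small margin. Myh11, the marker most restricted to mature smooth muscle, was listed at 0 in all 23 libraries, both population controls included.

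Tropomyosins and caldesmon regulate the thin filament, and Cald1 and Tpm1 varied least of the members detected in 8 or more mMSCs. Tpm1 was 178 FPKM in mMSC13, 472 FPKM at the median and 705 FPKM in mMSC14, a 3.96-fold range (8.77 ± 0.56 on the log2 scale, SD, n = 16 cells). Cald1 was 277 FPKM in mMSC9, 413 FPKM at the median and 766 FPKM in mMSC3, a 2.77-fold range (8.75 ± 0.41, SD, n = 16 cells). Tpm2 was lower, listed at 0 in mMSC13 and between 11.9 FPKM (mMSC12) and 110 FPKM (mMSC15) in the other mMSCs. The cell without Tpm2, mMSC13, was thus also the cell with the lowest Tpm1. In HL1cm1 to HL1cm5, Tpm1 was 1723, 1619, 886, 1794 and 579 FPKM (10.24 ± 0.72 on the log2 scale, SD, n = 5 cells). Cald1 in the same cells was 114, 226, 123, 113 and 184 FPKM (7.19 ± 0.46, SD, n = 5 cells). Tpm2 was 60.1, 72.3, 32.5, 16.7 and 49.1 FPKM in HL1cm, within the range of the mMSCs. Tpm1 overlapped between the cell types in its lowest HL1cm, whereas the Cald1 ranges did not overlap.

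The calponin family held both a broadly expressed and 2 patchy members. Cnn2, the calponin found in many cells that are not muscle, was 157 FPKM in mMSC5, 536 FPKM at the median and 858 FPKM in mMSC1, a 5.47-fold range (8.81 ± 0.77 on the log2 scale, SD, n = 16 cells). Cnn1, the calponin of differentiated smooth muscle, was listed at 0 in mMSC4, mMSC5, mMSC9 and mMSC12. In the other 12 mMSCs Cnn1 lay between 4.599 FPKM (mMSC1) and 80.6 FPKM (mMSC2), and 8 of them were at 35.3 FPKM or more. Tagln (transgelin, or SM22 alpha, an actin cross-linking protein) was listed at 0 in a different set, mMSC1, mMSC4, mMSC8 and mMSC11, and mMSC4 was the only cell in both sets. In the other 12 mMSCs Tagln lay between 3.45 FPKM (mMSC7) and 511 FPKM (mMSC16). The next highest were mMSC3 with 286 FPKM, mMSC2 with 265 FPKM and mMSC14 with 249 FPKM. These 4 cells were also the 4 highest in Acta2.

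In HL1cm1 to HL1cm5, Cnn2 was 186, 410, 113, 98.0 and 37.4 FPKM (6.97 ± 1.27 on the log2 scale, SD, n = 5 cells). Tagln was 234, 690, 18.4, 790 and 69.0 FPKM. Tagln was thus above 0 in every HL1cm, and HL1cm3, lowest in Tagln, was also lowest in Acta2. Cnn1 was above 0 only in HL1cm3, at 9.32 FPKM, and 2.47 FPKM in HL1cm-PC. By median over HL1cm the order was Myl9 (1880 FPKM), Tpm1 (1619 FPKM), Acta2 (1523 FPKM), Tagln (234 FPKM), Cald1 (123 FPKM), Cnn2 (113 FPKM) and Tpm2 (49.1 FPKM), with Actg2, Cnn1 and Myh11 at 0. The first 3 overlapped, as did Tagln, Cald1 and Cnn2. In all, 7 of the 10 members were detected in all 5 HL1cm, beside 14% of all genes in the table.

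Since the spread of a gene between single cells depends on its level, each member was set beside genes of like mean. Over the 6777 genes detected in at least 8 mMSCs, the median SD of log2 values was 1.499. It was 0.70 over the 969 genes with a mean of 100 FPKM or more and 1.71 over the 3475 genes with a mean of 10 to 100 FPKM. Of the members in the upper class, Myl9 had a larger SD (2.49) than 95.7% of its genes and Acta2 (1.57) than 88.9%. Cnn2 exceeded 58.7%, Tpm1 30.4% and Cald1 7.95% of the same class. Of the members in the lower class, Tagln (SD 3.26) exceeded 99.8%, Cnn1 (2.45) 90.9% and Tpm2 (1.66) 47.4%. The members thus ran from one of the most variable genes of its level, Tagln, to one of the least variable, Cald1. With values under 1 FPKM set to 1, 78.3% of the 6777 genes spanned 10-fold or more between the highest and the lowest mMSC, and 5 of these 8 members did, all but Cnn2, Tpm1 and Cald1. The SDs of Tagln, Cnn1, Myl9 and Tpm2 include their values at 0, and over the cells above 0 they were 2.46, 1.42, 1.72 and 0.93.

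**Figure D2:**
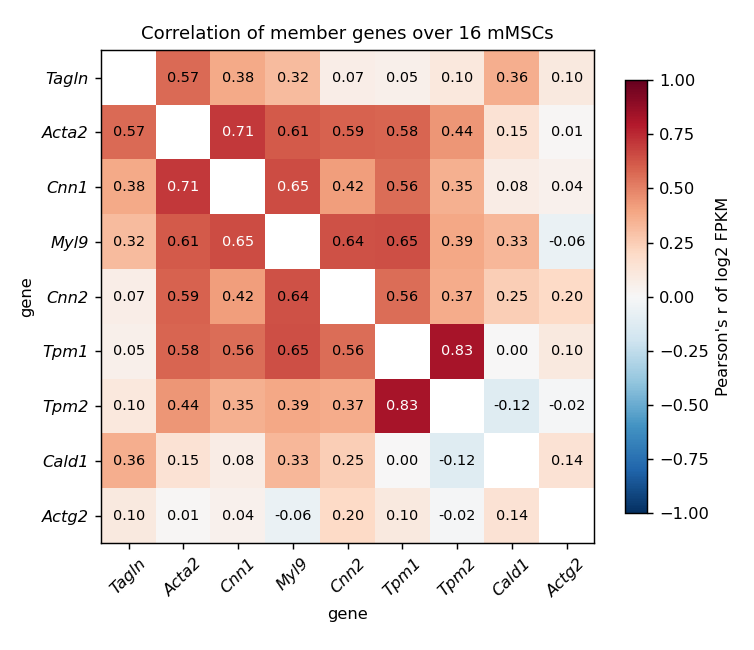
Pearson's r between the log2 FPKM of 9 member genes over the 16 mMSCs; red is positive, blue is negative and each cell of the grid prints its r. Acta2, Cnn1, Myl9, Cnn2 and Tpm1 form a block with r between 0.42 and 0.71, and Tpm1 and Tpm2 reach 0.83. Without mMSC4 and mMSC5, r of Cnn1 and Cnn2 was 0.06. By Spearman's rho, Cnn2 had at most 0.38 with Acta2, Cnn1, Myl9 and Tpm1. Cald1 and Actg2 stay outside in this grid. With each library scaled to the same total (TPM), r of Cald1 was 0.66 with Tpm1 and with Cnn2. On that scale 9.04% of all gene pairs had r of 0.5 or more.

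To ask whether the members varied together, Pearson's r of log2 FPKM was computed over the 16 mMSCs for the 36 pairs of the 9 members that varied. All cells shared a chip and a lane, so these did not differ between the cells. The part of other technical differences between libraries in r was not tested. The median r of the 36 pairs was 0.34, and 33 pairs were positive. With r of 0.5 or more, 11 of the 36 pairs (30.6%) passed, against 2.96% of all pairs among the 6777 genes, whose median r was 0.0041. Among the 8 members detected in at least 8 mMSCs, the class from which that background was taken, the same 11 pairs were 39.3% of 28 and the median r was 0.38. The 5 members with a mean of 100 FPKM or more gave 6 of 10 pairs at r of 0.5 or more with a median of 0.57, beside 4.03% of pairs and a median of -0.0012 over genes of that level. By Spearman's rho, Cnn2 fell under 0.5 with Acta2 (0.37), Myl9 (0.38) and Tpm1 (0.28). Acta2 with Myl9 (0.77) and with Tpm1 (0.69), and Myl9 with Tpm1 (0.63), stayed above it. The pairs share genes and are not independent.

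Acta2 had r of 0.5 or more with 5 of the 7 other members in that class, beside 3.41% of all genes, and Tpm1 also with 5 of 7, beside 3.7%. Myl9 reached it with 4 (2.24% of all genes), Cnn1 with 3 (3.41%) and Cnn2 with 3 (2.55%). Tagln reached it with 1, Acta2 (2.69%), Tpm2 with 1, Tpm1 (3.78%), and Cald1 with 0 (3.54%). Cald1 had its highest r with Tagln, at 0.36. With each library scaled to the same total (TPM), all gene pairs had a median r of 0.14, and 9.04% had 0.5 or more. On that scale Cald1 had r of 0.66 with Tpm1 and 0.66 with Cnn2, against 0.0034 and 0.25 here. These counts depended on the measure: at rho of 0.5 or more they were 5 for Myl9, 4 each for Acta2, Tpm1 and Cnn1, 3 for Tagln, 2 for Tpm2 and 0 for Cnn2 and Cald1. Several counts also rested on single cells. The count of 3 for Cnn2 was 1 without mMSC5, and r of Tpm1 was then 0.475 with Cnn1 and 0.44 with Cnn2. Tagln gained Myl9 without mMSC5, at r of 0.65. Without mMSC4, r of Tagln with Acta2 fell to 0.48, and r of Tpm2 with Acta2 rose to 0.64.

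Of the pairs with Acta2, Cnn1 had the highest Pearson's r over 16 cells, and Myl9 the highest rho. Acta2 and Cnn1 had r of 0.71 and Spearman's rho of 0.76, and r was 0.73 without mMSC4 and mMSC13, the 2 cells farthest from the Acta2 median. Of the 4 mMSCs with Cnn1 at 0, mMSC4, mMSC9 and mMSC5 had 33.5, 190 and 316 FPKM of Acta2. The other, mMSC12, had 635 FPKM, above the Acta2 median of 554 FPKM. The highest Cnn1 values fell in mMSC2 and mMSC14, the cells with most Acta2. Acta2 and Myl9 had r of 0.61 and rho of 0.77, and over the 15 cells in which both were above 0, r was 0.79. Acta2 and Tpm1 had r of 0.58 and rho of 0.69, and Acta2 and Tagln r of 0.57 and rho of 0.58. Without mMSC4 and mMSC13, r was 0.66 for Tpm1 and 0.4995 for Tagln, the latter just under 0.5. The relation to Cnn2 rested more on single cells: r was 0.59 but rho 0.37, and r was 0.37 without mMSC4 and mMSC13. Cald1 stood apart from Acta2 with r of 0.15, which became 0.46 without mMSC4 and mMSC13.

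**Figure D3:**
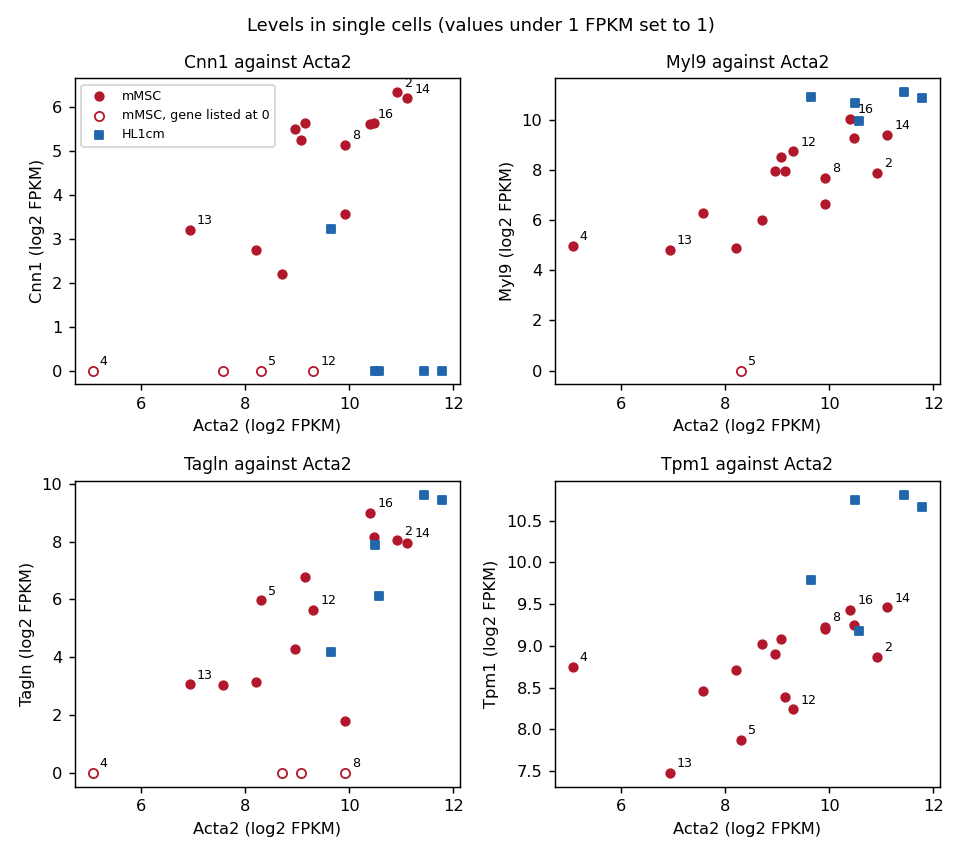
Log2 FPKM of Cnn1, Myl9, Tagln and Tpm1 against log2 FPKM of Acta2 in single cells, with values under 1 FPKM set to 1; red circles are mMSCs, open where the gene on the vertical axis is listed at 0, and blue squares are HL1cm. mMSC14, mMSC2 and mMSC16 lie at the upper right of the Tagln panel, and mMSC4 has the lowest Acta2 with Cnn1 and Tagln both at 0.

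The 2 tropomyosins had the highest r of all member pairs, 0.83 with rho of 0.79. It was 0.76 without mMSC13 and mMSC5, the lowest cells in Tpm1, and 0.73 over the 15 cells with Tpm2 above 0. Scaling each library to the same total, as in TPM, lowered it to 0.55. Myl9 had r of 0.65 with Cnn1, 0.65 with Tpm1 and 0.64 with Cnn2. Without mMSC5, where Myl9 was listed at 0, Myl9 and Cnn2 had r of 0.43, whereas Myl9 and Tpm1 had 0.55, and 0.39 with mMSC13 left out as well.

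Tagln differed from member to member in its r over the cells that had it. Tagln and Cnn1 had r of 0.38 and rho of 0.56 over 16 cells, and r of 0.86 over the 9 cells in which both were above 0. Tagln and Myl9 had r of 0.32 and rho of 0.52 over 16 cells, 0.65 without mMSC5 and 0.84 over the 11 cells with both above 0. In the other direction, r of Tagln and Myl9 was 0.12 without mMSC16 and mMSC3, the cells with most Tagln. Tagln and Acta2 had r of 0.71 over the 12 cells with both above 0. With the other 4 members, r of Tagln over such cells was lower, at 0.44 with Tpm2, 0.41 with Tpm1, 0.23 with Cald1 and 0.19 with Cnn2, where over 16 cells it was 0.10, 0.05, 0.36 and 0.07. The values over cells above 0 were computed after the data had been seen and leave out the cells in which a gene was low.

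The cells without Tagln were among the highest mMSCs by another measure. The mean log2 FPKM of 8 genes of cycling cells (Mki67, Top2a, Ccnb1, Cdk1, Birc5, Ccna2, Aurkb and Plk1) was 5.31 in mMSC1, 5.85 in mMSC4, 5.71 in mMSC8 and 6.10 in mMSC11, the 4 cells with Tagln at 0. Only mMSC14 was as high, at 5.64, and it had 249 FPKM of Tagln. The other 11 mMSCs were at 3.34 or lower, and all of them had Tagln above 0. Over 16 cells the cycling mean had r of -0.56 with Tagln and -0.45 with Cald1, against -0.18 with Acta2, -0.14 with Myl9, -0.06 with Cnn1 and -0.02 with Cnn2. The tropomyosins went the other way, with r of 0.34 for Tpm1 and 0.32 for Tpm2. The share of all genes with an r of this size to the cycling mean was not computed. The part of cycling in the Tagln values was not tested. The number of genes detected per cell had r between -0.07 and 0.27 with the 9 members. Gapdh had r between -0.07 and 0.17 with them, Actg2 (-0.48) left aside. mMSC9 and mMSC15, with the fewest genes detected (5178 and 5837) and the fewest aligned read pairs, had Acta2 of 190 and 499 FPKM and Tagln of 8.22 and 19.7 FPKM.

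The genes nearest to Acta2 and Tagln over the 16 mMSCs were taken by r among the 6777 genes, members left out. For Acta2 they were Actb (r of 0.82), the cytoplasmic beta-actin, Loxl2 (0.80), a lysyl oxidase that cross-links collagen, Zfml (0.80), Tor1aip2 (0.79) and 9130401M01Rik (0.78). The most opposed were Ssbp1 (-0.75), which binds mitochondrial DNA, Ltn1 (-0.73) and Nrd1 (-0.73). Actb was 3774 FPKM in mMSC4, 9871 FPKM at the median and 15484 FPKM in mMSC3, so the cell lowest in Acta2 was also lowest in Actb. For Tagln they were Oas1b (0.79), Dym (0.78), Ccnyl1 (0.76), Klf13 (0.75) and Baiap2 (0.75), and the most opposed were Laptm4b (-0.78), Ier3 (-0.77) and Yrdc (-0.73). Of the 5 nearest to Tagln, 4 were listed at 0 in 6 to 8 mMSCs, and Klf13 in 1. The 2 lists had no gene in common. They are the extremes of 6776 values and are a description of these cells.

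The population controls were set beside the mean of the single cells. mMSC-PC exceeded the highest single mMSC for 4 of the 9 members detected in at least 2 mMSCs, beside 8.6% of genes: Acta2 at 2233 FPKM, by a small margin over mMSC14, Cnn2 at 1108 FPKM, Tpm1 at 1245 FPKM and Cnn1 at 87.1 FPKM. As a multiple of the mean of the 16 cells, these were 2.86, 2.199, 2.67 and 3.07. Counting Actg2, 5 of the 9 were at least 2-fold above the mean, beside 23.5% of 10867 genes, and none was 2-fold below, beside 19% of genes. Gapdh, a glycolytic enzyme used as a reference gene, was itself 2.601 times the mean in mMSC-PC. Relative to Gapdh, a scaling chosen after seeing the data, 1 of the 9 was at least 2-fold above, Actg2, beside 4.07% of genes, and 3 were 2-fold below, Tagln and Cald1 (both 0.28 times) and Myl9 (0.33), beside 51.3% of genes. Acta2 was then 1.03, Cnn1 1.103, Tpm1 0.99 and Cnn2 0.82 times the mean. In FPKM as deposited, the remaining members lay nearer to the mean of the cells, with Tpm2 at 78.4 FPKM (1.46 times the mean), Myl9 at 237 FPKM (0.85), Cald1 at 343 FPKM (0.76) and Tagln at 74.1 FPKM (0.75). The mean of the cells for Tagln rested on few of them: 11 of 16 mMSCs were below mMSC-PC. In bulk RNA, more cells with a gene and more RNA per cell cannot be told apart. HL1cm-PC was above the mean of its 5 cells for all 7 members detected in at least 2 HL1cm, beside 64.7% of genes, and 2-fold or more for 1 of them, Cnn2 (371 FPKM, 2.199 times), beside 33.9% of 8244 genes. None of the 7 was 2-fold below, beside 14.4% of genes. It held 3887 FPKM of Acta2, 534 of Tagln, 1760 of Myl9, 1832 of Tpm1, 178 of Cald1 and 90.7 of Tpm2. Each cell type had 1 population control, so these ratios have no replicate check.

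**Figure D4:**
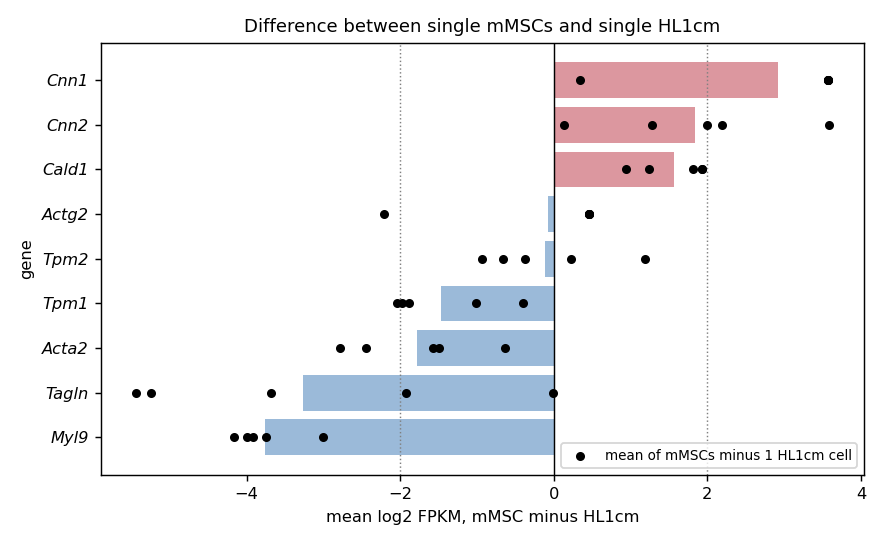
Difference of mean log2 FPKM between the 16 mMSCs and the 5 HL1cm (bars, mMSC minus HL1cm, in log2 units) for the 9 members detected in at least 2 of the 21 single cells; each dot is the mean of the mMSCs minus 1 HL1cm cell and dotted lines mark 2 units. Myl9 lies past the line with all 5 dots, the dots of Tagln run from near 0 to beyond -5, and those of Tpm2 and Actg2 fall on both sides of 0.

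Between the cell types the members did not move as a block. As the mean log2 of mMSC minus that of HL1cm, 1 member was at least 2 units (4-fold) higher in mMSCs, Cnn1 at 2.92, and 8.77% of 11850 genes were. At least 2 units lower were 2 members, Myl9 at -3.77 and Tagln at -3.26, beside 9.27% of genes. The median over the 9 members tested was -0.11 and over all genes tested 0.08. Under the 2-unit threshold, Cnn2 (1.84) and Cald1 (1.57) had higher values in mMSCs and Acta2 (-1.79) and Tpm1 (-1.47) lower ones. The difference of Tpm2 was -0.11, and 0.19 or 0.20 when libraries were scaled to TPM or to Gapdh. These scalings moved the median of all genes by 0.15. In FPKM it was also positive without HL1cm1 (0.026) or without HL1cm2 (0.093), so its sign depended on the scale and on single cells. Actg2 gave -0.07 with nearly all cells at 0.

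Cell by cell, Cald1 was the only member with every mMSC above every HL1cm, as for 2.19% of genes, and no member had every mMSC below every HL1cm, as for 1.77%. Cnn2 was above every HL1cm in 10 of 16 mMSCs and Cnn1 in 9. Acta2 was below every HL1cm in 10 of 16 mMSCs, Tpm1 in 11 and Tagln in 8. The population controls had the same order of cell types for these members: HL1cm-PC held 7.42 times the Myl9, 7.21 times the Tagln, 1.74 times the Acta2 and 1.47 times the Tpm1 of mMSC-PC, and mMSC-PC held 35.3 times the Cnn1, 2.99 times the Cnn2 and 1.93 times the Cald1 of HL1cm-PC. The differences of Tagln and Cnn1 rested in part on cells at 0. Over cells above 0 only, a choice made after seeing the data, Tagln gave -1.87 and Cnn1, with 1 HL1cm left, 1.53, both short of 2 units, while Myl9 kept -3.30. With the dye, the medium and the passage different in the 2 cell types, these cannot be told apart from the cell type.

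**Figure D5:**
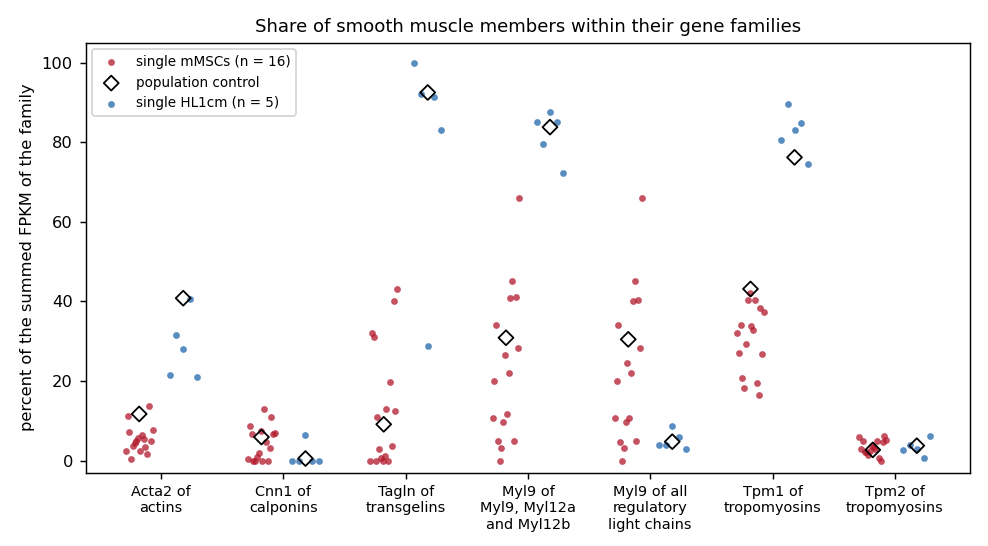
Share of each smooth muscle member in the summed FPKM of its gene family, in percent, in the single mMSCs (red), the single HL1cm (blue) and both population controls (diamonds). Acta2 and Tpm1 took larger shares in every HL1cm than in every mMSC, and Myl9 did so beside Myl12a and Myl12b but not once the striated light chains were counted.

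Each contractile protein has close relatives in cells that are not muscle, and the share of the smooth muscle member within its family was computed as a percentage of summed FPKM. Acta2 made up 0.44% (mMSC4) to 13.7% (mMSC14) of the actins in mMSCs with a median of 4.88%, and 20.97% to 40.6% in HL1cm with a median of 28.2%. The remainder in mMSCs was almost all Actb and Actg1, whereas Actc1, the cardiac actin, took 17.7% to 30.4% in HL1cm and at most 0.041% in mMSCs. Myl9 made up 0% to 66.0% of Myl9, Myl12a and Myl12b together in mMSCs with a median of 21.1%, and 72.2% to 87.5% in HL1cm. With the striated light chains Myl2, Myl7, Myl10 and Mylpf counted as well, a choice made after seeing the data, the order of the medians was reversed and the ranges overlapped: Myl9 was 2.98% to 8.74% in HL1cm, where Myl7, the atrial light chain, took 90.0% to 95.8%, while the median in mMSCs was again 21.1%. Of the 16 mMSCs, 12 were above every HL1cm, and mMSC5 (0%), mMSC6 (3.18%), mMSC4 (4.81%) and mMSC13 (5.05%) were not. Tpm1 was 16.4% to 42.1% of the tropomyosins in mMSCs and 74.6% to 89.5% in HL1cm. For Acta2 and Tpm1 no mMSC reached any HL1cm.

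In the transgelins and calponins the shares overlapped. Tagln was 0% to 43.2% of Tagln and Tagln2 together in mMSCs with a median of 7.37%, and 28.9%, in HL1cm3, to 100% in HL1cm. The mMSCs held 137 to 736 FPKM of Tagln2, so the form of cells that are not muscle exceeded Tagln in all 16 of them. Cnn1 was 0% to 12.9% of the calponins in mMSCs, and in HL1cm 6.47% in HL1cm3 and 0% in the others. Cnn2 was the main calponin in every mMSC, at 64.1% to 92.5%. Tpm2 was at most 6.18% of the tropomyosins in mMSCs and at most 6.33% in HL1cm. The Tpm1 share of tropomyosins in mMSC-PC (43.1%) was above that of all 16 mMSCs, while its Acta2 share (11.7%) was exceeded by 1 mMSC. A share needs no scaling between libraries, but families differ in how well their members can be told apart by short reads.

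A wider list of 56 genes of the same system was then described, all found in the table, of which 51 were tested. In mMSCs, 10 of the 51 were at least 2 units higher than in HL1cm and 9 at least 2 units lower, beside the 8.77% and 9.27% of all genes. Of the 7 genes of SRF, its coactivators and the Yap1 group, none was 2 units higher and 1 was lower, Myocd (-6.12), the coactivator known from heart and smooth muscle. Myocd was above 0 in 3 mMSCs, reaching 10.1 FPKM in mMSC2, and was 57.2 to 151 FPKM in HL1cm. Srf was above 0 in 9 mMSCs with a median of 1.99 FPKM and its highest value, 25.9 FPKM, in mMSC16, the cell with most Tagln and Myl9. Over 16 cells Srf had r of 0.28 with Acta2, 0.42 with Cnn1 and 0.18 with Tagln. The highest r with Acta2 in this group was that of Tead1, at 0.48 (0.41 with Tagln), and Yap1 had 0.47 with Cnn1, 0.46 with Myl9 and 0.44 with Tagln. The related coactivator Mkl2 was above 0 in every mMSC at 1.41 to 33.0 FPKM, with r of 0.06 with Acta2. These factors were at low levels, where a weak r is no finding.

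Other smooth muscle genes were at mixed levels in mMSCs. Fhl2 was 102 to 590 FPKM with a median of 377 FPKM, Csrp2 7.90 to 198 FPKM with a median of 79.1 FPKM, and Tgfb1i1 had a median of 27.5 FPKM. Of 16 such genes, 13 were tested, none was 2 units higher than in HL1cm and 6 were lower: Pln (-6.50), Des (-6.33), Fhl1 (-6.21), Hspb1 (-4.26), Mylk (-4.14) and Synpo2 (-3.44). Several of these are also genes of heart muscle, such as Des, the muscle intermediate filament, and Pln, which restrains the calcium pump. Mylk, the kinase that phosphorylates Myl9, was above 0 in 9 mMSCs with a median of 1.22 FPKM and a highest value of 90.5 FPKM in mMSC10, against 45.1 to 114 FPKM in HL1cm. Synpo2, Des, Itga8 and Ppp1r14a were listed at 0 in every mMSC. None of the 6 genes detected in at least 8 mMSCs had r of 0.5 or more with Acta2.

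Of the 38 list genes detected in at least 8 mMSCs, 11 had r of 0.5 or more with Acta2, beside the 3.41% given above for all genes, and 2 with Tagln, beside 2.69%. Of 10 genes of adhesion and stress fibre signalling, 6 did so with Acta2: Rock1 (0.68), a kinase that keeps myosin light chain phosphorylated, Actn1 (0.63) and Actn4 (0.53), which cross-link actin, and Zyx (0.58), Vcl (0.54) and Flna (0.52) of focal adhesions and stress fibres. Of 11 relatives that are not muscle-specific, 3 did: Actb (0.82), the heavy chain Myh9 (0.77) and the light chain Myl6 (0.74), while the median r of the 11 was 0.21. The pair with Tagln was Actn4 (0.70) and Myh9 (0.59). Of 10 TGF-beta and matrix genes, 2 did with Acta2, among them Thbs1 (0.55), a secreted matrix protein, which had r of 0.82 with Myl9. Thbs1 was 61.0 to 630 FPKM in mMSCs and listed at 0 in every HL1cm.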

How the data were processed

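Reads were aligned by the authors to mm10 with Tophat 2.0.12 and the deposited FPKM values (fragments scaled to exon length and library size) were estimated with Cufflinks 2.2.1. These values were used as deposited, for 23284 genes in 23 libraries, and 0 columns were left out. No count model was fitted, since counts were not analysed here, and depth limits the low values of each library to an unknown degree.

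For log2 values, FPKM under 1, the study's limit of detection, was raised to 1. Cells of a type were treated as 1 sample and every comparison is a description. Family shares, correlations (Pearson, Spearman) and differences were computed with scipy 1.17.1, pandas 2.3.3 and numpy 2.4.6 in Python 3.11.15. Figures were drawn with matplotlib 3.10.9. Members and lists were chosen with earlier results of these data known. Genes named are the members, the wider list, marker genes, Gapdh, and the 5 highest and 3 lowest genes by r to Acta2 and Tagln. Pcsk7 and Gm48529 were added for their overlap with Tagln, and Myl2, Myl10 and Mylpf for the light chain shares. Alternatives changed the limit of detection, the log scale, the scaling of libraries, the correlation and the cells included. Not every gene counted in the wider list is named.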

Additional observations from a re-analysis of the deposited data

Results flagged for a closer look

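In 2 of the 9 members with any range in HL1cm, 1 cell stood apart from the other 4. Actg2 was 6.39 FPKM in HL1cm4 and listed at 0 in the others, and Cnn1 was 9.32 FPKM in HL1cm3 and listed at 0 in the others. The gap to the nearest cell was the whole range in both (a ratio of 1, where 0.71 is the limit for 5 cells), as it must be when 4 of 5 values are 0. Chance alone passes this limit in about 1 of 20 groups, but that rate does not hold for groups with 4 of 5 values at 0. HL1cm3 also had the lowest Acta2 (798 FPKM) and the lowest Tagln (18.4 FPKM) of the HL1cm.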

How the results depend on the processing

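The count of 4 members at 1 FPKM or more in all 16 mMSCs was the same for values above 0, at 10 FPKM and in TPM. The median r of 0.34 was 0.38 for members detected (1 FPKM or more) in 8 or more mMSCs, 0.39 over cells with both genes above 0 (chosen after seeing the data), and 0.25 to 0.36 leaving out 1 mMSC. The median SD of 1.44 became 0.91 with values under 10 FPKM set to 10, 1.51 in TPM, 1.55 relative to Gapdh and 1.52 without mMSC9 and mMSC15, and was 1.14 to 1.49 leaving out 1 mMSC. The count of 1 member at least 2 units higher in mMSCs became 0 with values under 10 FPKM set to 10 (Cnn1 at 1.19), and 2, with Cnn2, in TPM and relative to Gapdh. Leaving out 1 HL1cm it was 1 to 2, the latter without HL1cm2 (Cnn2 at 2.26), and the count at least 2 units lower was 2 to 3, the latter without HL1cm3 (Acta2 at -2.07). The median difference over all 10 members, -0.09, ranged from -0.22 to 0.04. For single pairs, 51 of 309 values of r under other settings fell outside the range given by leaving out 1 mMSC, and for single members 3 of 117 differences moved by more than the SD between HL1cm cells. Relative to Gapdh (chosen after seeing the data), the log2 ratio of mMSC-PC to the mean of the cells was -0.28 for Cnn2 and -0.0084 for Tpm1, against 1.14 and 1.42 in FPKM. In TPM, with 1 short RNA gene taking up to 62.5% of an mMSC library (mMSC8), 9.04% of all gene pairs had r of 0.5 or more. No paired analysis was possible because numbers shared by mMSCs and HL1cm only name cells and no test was made.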

Other observations

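In the TGF-beta and matrix list, 5 of 8 genes tested were at least 2 log2 units higher in mMSCs than in HL1cm, beside the 8.77% of all genes, among them Thbs1 (8.08), Ctgf (5.25), Smad3 (2.33) and Tgfbr2 (2.32). Ctgf, a secreted target of TGF-beta and Yap1, was listed at 0 in mMSC13 and reached 168 FPKM in mMSC12, against at most 4.45 FPKM in HL1cm. Over the 16 mMSCs Ctgf had r of 0.63 with Tpm1 and -0.04 with Tagln. Tgfb1 and Eln were listed at 0 in every mMSC. Relatives of the members that are not muscle-specific were also higher in mMSCs in 4 of 11 cases, Tagln2 (4.46), Myh9 (3.98), Tpm4 (3.93) and Actb (2.23), each above every HL1cm in every mMSC, and lower in 1, Myl12b (-2.10).

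By the mean log2 FPKM of the 10 members, mMSC3 (7.06), mMSC16 (6.90) and mMSC14 (6.83) were the highest cells and mMSC4 (4.10), mMSC13 (4.23) and mMSC5 (4.28) the lowest. The low cells lacked partly different genes: mMSC4 had Tagln and Cnn1 at 0, mMSC13 had Tpm2 at 0, and mMSC5 had Cnn1 and Myl9 at 0.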
